A study of Mus musculus with 4 samples.

Results

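The genes described here encode the proteins of the cytosolic ribosome. They were chosen by gene symbol: Rpl or Rps followed by a number and optional letters, or Rpsa, with kinases of the Rps6k family and pseudogenes left out, and with Rps3a1 counted as the gene Rps3a. The platform annotation gave 64 such genes on 66 probes, among 23473 gene probes in all. All 64 were kept by the filter on dim probes, out of 15955 genes kept, with 39 in the large and 25 in the small subunit. Rplp0, Rplp1 and Rplp2 had no probe of that symbol in the annotation used. The study took ventricle muscle from male 129SV mice, with 2 wild-type (WT) samples and 2 Trpc6-/- samples, called knockout here, each on 1 array. Trpc6 encodes a calcium-permeable cation channel. The labels give no age, no treatment and no allele beyond that genotype. They do not say whether samples came from separate animals. The p-values set the difference between genotypes against the scatter of these 4 arrays within genotypes, and that scatter may be technical.

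The ribosome joins a small subunit, which holds the mRNA and reads its codons, to a large subunit, which forms the peptide bond and carries the exit tunnel of the new protein. Most ribosomal proteins are present in 1 copy per ribosome, and cells degrade those made in excess. Their mRNAs begin with a tract of pyrimidines at the 5′ end, the terminal oligopyrimidine or TOP motif, through which mTOR signalling controls their translation. Some have tissue-specific paralogs, of which Rpl3l in heart and skeletal muscle is the best known.

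The promoters below show members described later with and without a pyrimidine run at the annotated start. Of the first listed promoters of 13 such members, 5 held a run and 8 did not, and the 5 are printed with 3 of the 8: Rpl3l, Rps3, which lay higher in the knockout, and Rps13, which lay lower. Each is printed 5′ to 3′ from 40 bases before the annotated start to 20 bases from it on, and capitals mark a run of at least 6 pyrimidines (C or T in any order, coding strand, searched within 10 bases on each side of the start). Capitals stop at the edge of that window, and in Rpl15 the pyrimidines go on past it. Sequences and positions are from RefSeq, build GRCm38.p6. Rps27 lies at chr3:90213629-90213688 (minus strand), Rpl15 at chr14:18270967-18271026 (minus), Rps9 at chr7:3704001-3704060 (plus), Rps6 at chr4:86857348-86857407 (minus), Rpl28 at chr7:4792925-4792984 (plus), Rpl3l at chr17:24727786-24727845 (plus), Rps3 at chr7:99483690-99483749 (minus) and Rps13 at chr7:116334171-116334230 (minus).
Rps27: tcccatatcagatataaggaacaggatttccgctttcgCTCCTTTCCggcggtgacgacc
Rpl15: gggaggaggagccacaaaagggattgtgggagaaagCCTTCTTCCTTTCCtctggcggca
Rps9: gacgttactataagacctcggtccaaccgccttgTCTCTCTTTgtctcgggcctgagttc
Rps6: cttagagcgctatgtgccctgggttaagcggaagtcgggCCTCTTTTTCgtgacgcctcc
Rpl28: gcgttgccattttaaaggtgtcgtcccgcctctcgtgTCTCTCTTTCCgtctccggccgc
Rpl3l: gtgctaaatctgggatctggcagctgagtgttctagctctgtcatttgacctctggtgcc
Rps3: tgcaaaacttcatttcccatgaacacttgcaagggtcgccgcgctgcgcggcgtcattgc
Rps13: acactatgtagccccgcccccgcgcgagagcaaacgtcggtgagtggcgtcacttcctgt
Of the 64 genes, 51 matched an entry of the promoter table. Their 61 promoters held such a run in 27 cases, or 44.3%, against 20.2% of all 32851 promoters. The run of 9 bases in Rps27 and that of 11 bases in Rpl28 stand before genes that lay on opposite sides of wild type in the knockout. The muscle paralog Rpl3l, Rps3 and Rps13 had no run of that length in the searched window. The search covered a window around an annotated start, so it does not show which mRNAs begin with a TOP motif. The 26 genes with a run had a median log2 fold change of 0.045, with 23 higher in the knockout, and the 25 genes without one had a median of 0.048, with 17 higher.

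As a group these genes lay slightly higher in the knockout ventricle, and no single gene passed the test over all genes. Values are normalized log2 intensities, fold changes are the knockout mean minus the wild-type mean on that scale with their limma standard error, and p-values are from limma with Benjamini-Hochberg adjustment over all 15955 genes. Of the 64 genes, 47 had a fold change above 0, where 51.1% of all genes did, and 17 had one below 0. At an unadjusted p under 0.05 there were 9 higher, against a background of 3.67% of all genes, and 0 lower, against 3.08%. The groups did not overlap in 20 genes that were higher, against 19.4% of all genes, and in 5 that were lower, against 17.4%. The median log2 fold change was 0.046, a difference of 3.26%, beside 0.002 over all genes tested. With the limma test, 0 of the 64 genes and 0 of all genes had an adjusted p under 0.05, and the smallest adjusted p among the 64 was 0.727. The count of 9 was 0 in the authors' table and with a normexp offset of 0, and 3 with an offset of 16 or with a variance trend. Over all genes the share higher was then 1.36%, 2.81%, 3.2% and 2.94%, in the same order. With local background subtracted from each spot the median turned to -0.033. Fewer cells of a type and less RNA per cell cannot be told apart in bulk RNA.

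**Figure D1:**
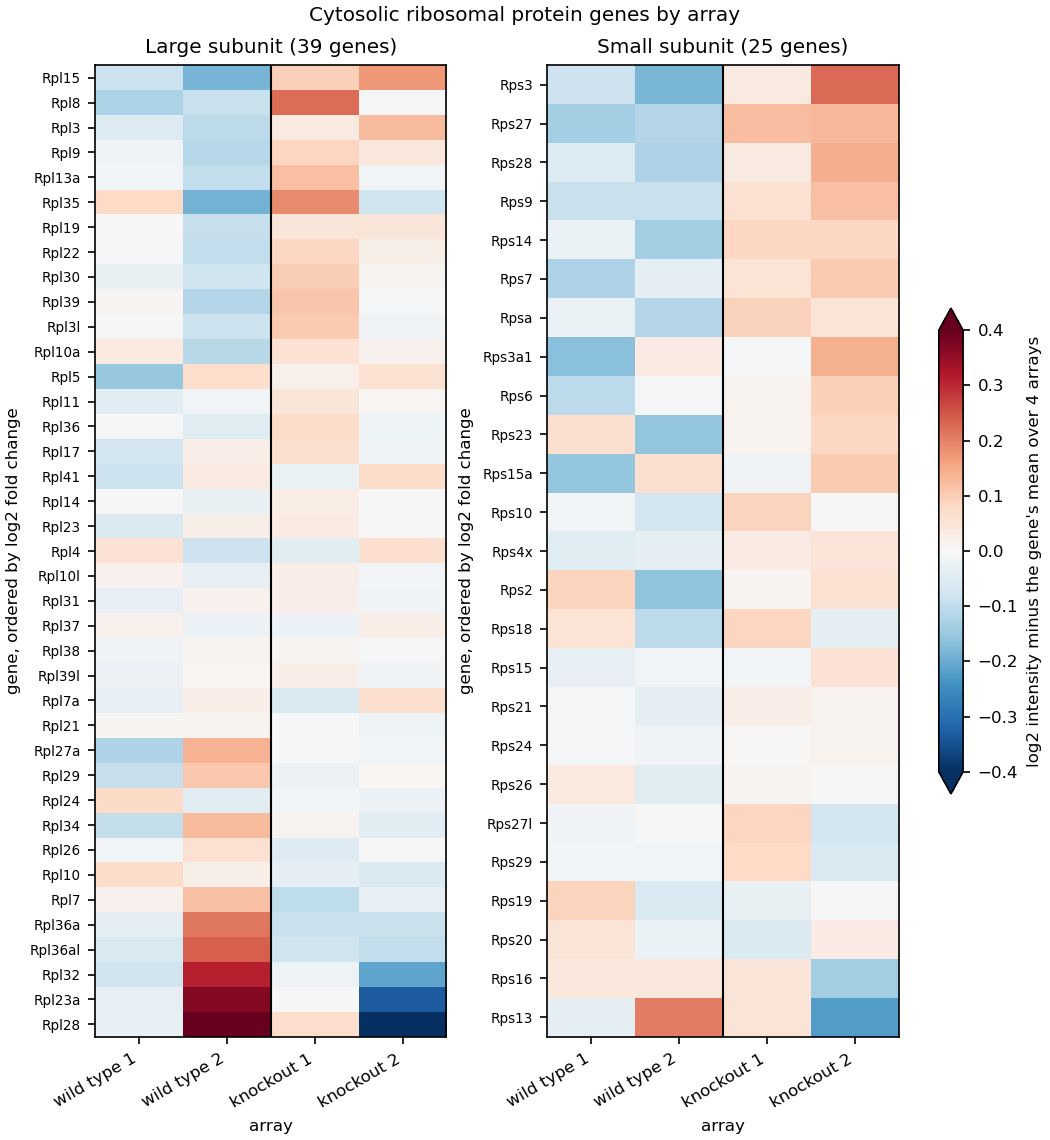
Each row is a gene and each column an array, and the colour is the normalized log2 intensity minus the gene's mean over the 4 arrays. In 12 of 25 small subunit rows both knockout arrays lie above both wild-type arrays, an order found in 19.4% of all genes. Rows at the bottom of the large subunit (Rpl32, Rpl23a, Rpl28) are high on the second wild-type array and low on the second knockout array.

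The arrays were closely correlated but differed in scale. The median probe was at 95.5 to 106 units of spot median and blank spots at 78.4 to 87.5, so signal over background was small for the typical probe. With 4 arrays, precision is limited by their number. Correlations between arrays over all genes lay between 0.9933 and 0.9971. The second wild-type array took part in each of the 3 lowest. The probe of Trpc6 read 80.5 and 89.2 units in wild type against 84.1 and 82.6 in the knockout, was above background on 0 arrays, and so checks nothing about the labels. All 8 fixed markers of ventricular cardiomyocytes were above background. Their summed spot medians, not normalized, were 207683 and 236577 units in wild type against 212914 and 194085 in the knockout. The authors' table multiplied the wild-type arrays by 0.982 and 0.807 and the knockout arrays by 0.95 and 1.02, so these sums include array scale. After normalization the median log2 fold change of the 8 markers was 0.023.

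The small subunit carried more of the shift than the large one. Of its 25 genes, 21 lay higher and 4 lower, with a median log2 fold change of 0.084, or 5.98%, and 7 were higher at an unadjusted p under 0.05. Of the 39 genes of the large subunit, 26 lay higher and 13 lower, with a median of 0.023, or 1.58%, and 2 were higher at that level. Without overlap of the groups, 12 small subunit genes (48%) were higher and 0 lower, while 8 large subunit genes (20.5%) were higher and 5 (12.8%) lower, beside 19.4% higher and 17.4% lower over all genes. At an unadjusted p under 0.05, 28% of the small and 5.13% of the large subunit genes were higher, beside 3.67% of all genes. By these counts of non-overlap and of p, the large subunit was near the background. By sign, 66.7% of the large and 84% of the small subunit genes lay higher, beside 51.1% of all genes. The difference between the subunits was not tested, since genes are not replicates of a genotype. By array, the median deviation of small subunit genes from their own mean was -0.024 and -0.037 in wild type against 0.035 and 0.049 in the knockout, so that the genotypes did not overlap. For the large subunit it was -0.024 and 0.01 in wild type against 0.027 and -0.01 in the knockout. The second array of each genotype thus went against the order of the means in the large subunit. Without the second wild-type array the small subunit median was 0.053 and the large 0.035, and the gap between them shrank from 0.061 to 0.018. Without the first wild-type array the large subunit median was 0.002, and without the first knockout array it was 0.009. With local background subtracted the order of the subunits turned, to a small subunit median of -0.221 and a large one of -0.02.

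Of the 9 genes higher at an unadjusted p under 0.05, 7 belong to the small subunit. Rps27, which encodes a zinc finger protein of the small subunit, read 12.24 and 12.26 on the wild-type arrays and 12.50 and 12.51 on the knockout arrays. The spread within each genotype was at most 0.02 against a fold change of 0.25 ± 0.04, or 1.19-fold, with an unadjusted limma p of 0.00157. Rps9, a protein of the mRNA entry channel, read 11.58 on both wild-type arrays and 11.73 and 11.79 on the knockout arrays, a fold change of 0.18 ± 0.04. Rps3, which lines the same channel, read 11.51 and 11.41 in wild type against 11.63 and 11.82 in the knockout, a fold change of 0.26 ± 0.08. Both knockout arrays lay above both wild-type arrays for each of these genes, an order that a choice by small p favours.

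Rps14, Rps28 and Rps7 followed the same order. Rps14, whose loss in human is linked to a form of myelodysplastic anaemia, read 12.45 and 12.34 in wild type and 12.56 on both knockout arrays, a fold change of 0.17 ± 0.05. Rps28, of the head of the small subunit, read 11.95 and 11.88 in wild type against 12.04 and 12.15 in the knockout. Its fold change was 0.18 ± 0.06 on the brightest probe and 0.11 on the other kept probe. Rps7, one of the genes mutated in human Diamond-Blackfan anaemia, read 11.72 and 11.81 in wild type against 11.90 and 11.95 in the knockout, a fold change of 0.16 ± 0.05. Rpsa, which is also known as a laminin receptor, was dim, at 6.69 and 6.60 in wild type against 6.81 and 6.77 in the knockout, with a fold change of 0.14 ± 0.05 and an unadjusted limma p of 0.0429. This was the last of the 9 genes inside 0.05, and Rpl9, with a p of 0.0566, was the first outside it.

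In the large subunit, Rpl15 and Rpl3 were the genes higher at an unadjusted p under 0.05. Rpl15 read 11.02 and 10.92 in wild type against 11.20 and 11.28 in the knockout, a fold change of 0.26 ± 0.06 with a p of 0.007 in limma. In the authors' deposited table Rpl15 was at 1919.0 and 1656.9 units in wild type against 2171.4 and 2309.6 in the knockout, which is the same order. Rpl3, which reaches toward the peptidyl transferase centre, read 9.62 and 9.57 in wild type against 9.71 and 9.80 in the knockout, a fold change of 0.17 ± 0.05. The knockout arrays were above the wild-type arrays for both genes, which were likewise chosen by their p.

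**Figure D2:**
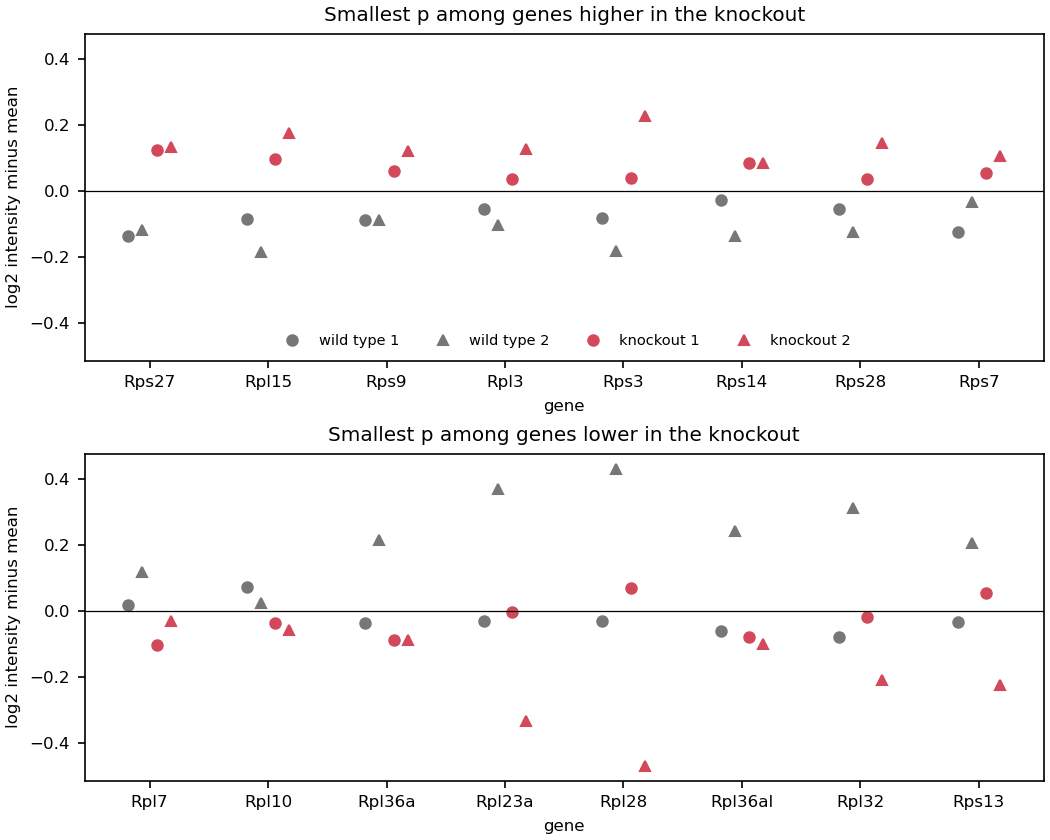
The vertical axis is the normalized log2 intensity minus the gene's mean over the 4 arrays, shown for the 8 genes with the smallest p in each direction, with wild-type arrays in grey and knockout arrays in red. The upper genes separate by genotype, which a choice by small p favours, since all 8 had an unadjusted limma p under 0.05. No gene of the lower panel reached that level. There Rpl23a, Rpl28, Rpl32 and Rps13 have the first wild-type array and the first knockout array close together and only the second arrays far apart.

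The 3 lowest fold changes came from genes whose groups overlapped. Rpl28 read 8.74 and 9.20 in wild type against 8.84 and 8.30 in the knockout, a fold change of -0.40 ± 0.24 that was the lowest of all 64. Rpl23a, which sits at the tunnel exit where the signal recognition particle docks, read 12.28 and 12.68 in wild type against 12.31 and 11.98 in the knockout, a fold change of -0.34 ± 0.18. Rpl32 read 12.48 and 12.87 against 12.54 and 12.35, a fold change of -0.23 ± 0.15. In these genes the groups overlapped, the first arrays of both genotypes read nearly alike, and the values came from a high second wild-type array and a low second knockout array.

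Rps13, an early-assembling small subunit protein, showed the same order, at 11.86 and 12.10 in wild type against 11.95 and 11.67 in the knockout. In all, 6 of the 64 genes were highest on the second wild-type array and lowest on the second knockout array: Rpl21, Rpl23a, Rpl28, Rpl32, Rpl36al and Rps13. Rpl21 was dim, with a range of only 0.04 over the arrays. Over all genes 12.7% had this order, a larger share than 6 of 64. These genes were singled out after their values were seen. Without the first wild-type array 6 of the 64 genes were lower at an unadjusted p under 0.05, where 0 were with all arrays, while over all genes that share went from 3.08% to 7.53%.

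Besides Rpl21, the genes Rpl7, Rpl10, Rpl36a and Rpl36al lay lower without overlap of the groups. Rpl7 read 11.59 and 11.69 in wild type against 11.47 and 11.54 in the knockout, a fold change of -0.14 ± 0.05 with an unadjusted limma p of 0.0588. Rpl10, among the last proteins to join the large subunit, read 12.42 and 12.37 in wild type against 12.31 and 12.29 in the knockout, a fold change of -0.10 ± 0.04. Rpl36a read 10.79 and 11.04 in wild type and 10.74 on both knockout arrays. Its paralog Rpl36al read 11.75 and 12.05 against 11.73 and 11.71. For Rpl36a and Rpl36al the first wild-type array lay within 0.05 of a knockout array, and the fold change of each was -0.17, with standard errors of 0.09 and 0.11.

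Other paralog pairs were read side by side, each on its own probe. Rpl3l, the muscle paralog of Rpl3, read 10.73 and 10.65 in wild type against 10.84 and 10.72 in the knockout, a fold change of 0.09 ± 0.06 with overlapping groups. The fold changes of Rpl3 and Rpl3l thus had the same sign, and their difference was not tested. Rps27l, a paralog of Rps27 known as a p53 target, read 10.17 and 10.18 in wild type against 10.27 and 10.11 in the knockout, so that the knockout arrays lay on both sides of wild type, unlike those of Rps27. Rps4x, the X-linked small subunit gene, read 12.26 and 12.27 against 12.34 and 12.36, a fold change of 0.08 ± 0.04 without overlap. Rpl39 read 9.94 and 9.81 against 10.04 and 9.92, with overlap. Its paralog Rpl39l, and the Rpl10 paralog Rpl10l, both best known from testis, were near background, at 5.99 to 6.04 and 5.81 to 5.87 over the 4 arrays, and on 1 wild-type array Rpl10l did not exceed background. The paralogs Rpl22l1 and Rpl7l1 fall outside the symbol rule. Rpl22l1 read 10.09 and 10.20 in wild type against 10.41 and 10.36 in the knockout, a fold change of 0.23 ± 0.05, and Rpl7l1 had one of 0.12 ± 0.04.

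Rps6, the substrate of the S6 kinases, read 11.98 and 12.08 in wild type against 12.10 and 12.18 in the knockout, a fold change of 0.11 ± 0.06 without overlap. Rpl5 and Rpl11, which bind Mdm2 together with ribosomal RNA when ribosome assembly fails, had fold changes of 0.08 ± 0.08 and 0.06 ± 0.04. Rpl5 read 12.31 on the first wild-type array and 12.48 to 12.53 on the other 3, and its sign turned without that array. Rpl13a and Rps18, often taken as reference genes for expression assays, had fold changes of 0.11 ± 0.07 and 0.05 ± 0.08, with overlapping groups in both. Rps19, the gene most often mutated in human Diamond-Blackfan anaemia, had spot medians of 97.0 and 99.3 units in wild type against 93.6 and 94.3 in the knockout, near background, with a fold change of -0.03 ± 0.07.

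**Figure D3:**
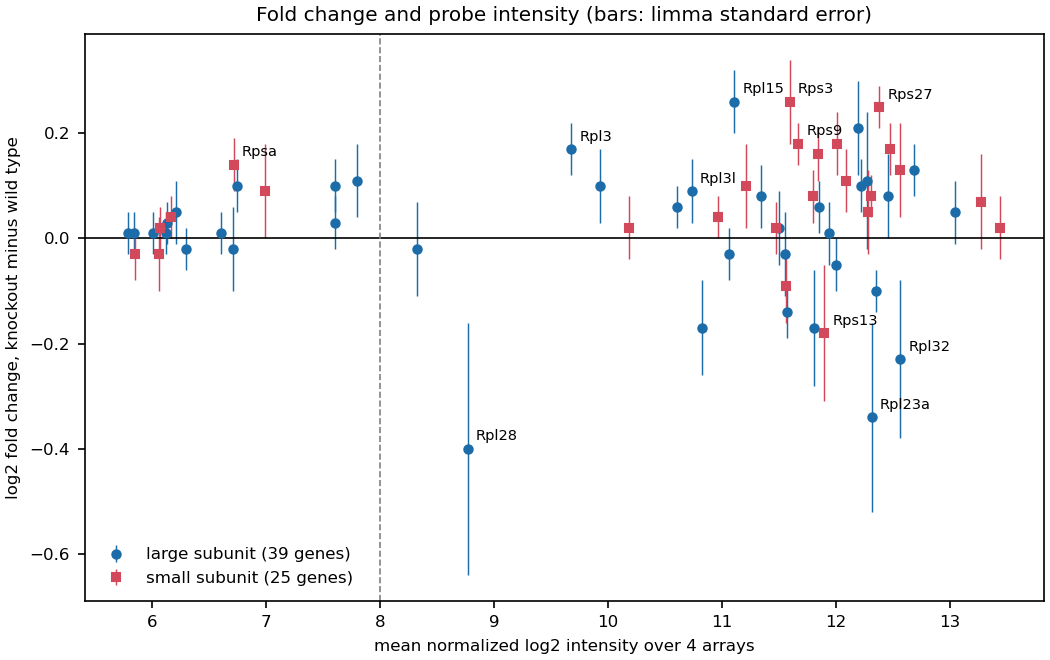
The horizontal axis is the mean normalized log2 intensity over the 4 arrays and the vertical axis the log2 fold change with its limma standard error, with large subunit genes as blue circles and small subunit genes as red squares. Left of the dashed line at 8 lie 19 dim genes with fold changes between -0.03 and 0.14, and right of it 45 bright genes between -0.40 and 0.26.

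Probes fell into a bright and a dim class. There were 45 genes with a mean of at least 8, a limit set after the values were seen, and 19 below it: Rpl10l, Rpl13a, Rpl14, Rpl17, Rpl21, Rpl22, Rpl23, Rpl29, Rpl30, Rpl31, Rpl37, Rpl38, Rpl39l, Rps15a, Rps19, Rps20, Rps21, Rps24 and Rpsa. Rps24, for example, read 93.0 and 103.0 units of spot median in wild type against 96.0 and 95.6 in the knockout, while Rps27 read 4740 and 5250 against 5740 and 5690 units. Probe intensities depend on the probe as well as the transcript, so these levels give no order between genes. Rpl10l, Rpl37 and Rps20 were above background on only 2 or 3 of the 4 arrays, and the brightest spot of any member, at 12500 units, was not saturated. Fold changes of dim probes are understated, since the offset is added to both groups. Among the bright genes alone, 32 lay higher and 13 lower with a median of 0.056, and by subunit the medians were 0.085 for 19 small and 0.036 for 26 large subunit genes. Among the dim genes the median was 0.018, with 15 higher and 4 lower.

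Another 32 probes carry symbols of ribosomal protein pseudogenes, copies that share most of their sequence with the parent mRNA, and were left out. All 32 passed the filter on dim probes, although Rps4l-ps did not exceed background on 1 wild-type array, and whether they read the copy or the parent cannot be told apart here. Of these, 17 lay higher and 15 lower in the knockout, with a median log2 fold change of 0.008. At an unadjusted p under 0.05, 1 was higher, Rpl19-ps4, with 10.05 and 10.04 in wild type against 10.25 and 10.18 in the knockout, and 2 were lower, Rpl21-ps1 and Rpl30-ps11. In 7 of the 32 the order of arrays was that of Rpl28, highest on the second wild-type array and lowest on the second knockout array, beside 12.7% of all genes. Rpl28-ps4, Rpl34-ps2, Rpl31-ps21 and Rps15a-ps1 were among them, although Rpl34, Rpl31 and Rps15a themselves did not have this order. Rpl23a-ps1 did not have the order of Rpl23a, at 11.69 and 11.77 in wild type against 11.79 on both knockout arrays.

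Related genes did not share one direction. Of 29 measured translation factors and other mRNAs of the TOP class, 16 lay higher and 13 lower, with a median of 0.013, and at an unadjusted p under 0.05 there were 2 on either side. Within the initiation factor eIF3, Eif3h had a fold change of 0.11 ± 0.04 and Eif3b one of -0.33 ± 0.11, and Eif3l of the same complex one of -0.25 ± 0.07. Pabpc1, the poly(A)-binding protein, read 9.16 and 8.98 in wild type against 9.25 and 9.32 in the knockout. Fau, which encodes a small subunit protein fused to a ubiquitin-like domain, read 11.33 and 11.05 against 11.43 and 11.35, a fold change of 0.20 ± 0.10. Of 54 genes of ribosome biogenesis, 29 lay higher and 25 lower, with a median of 0.012, and 1 on either side at that level. Polr1d, a subunit of RNA polymerases I and III, read 9.11 and 8.97 in wild type against 9.33 and 9.36 in the knockout, and Rrp1, a nucleolar processing factor, had a fold change of -0.45 ± 0.16. Of 23 genes of mTOR and translational control, 11 lay higher and 12 lower, with a median of -0.002, and again 1 on either side. Ddit4, an inhibitor of mTOR signalling, had a fold change of 0.96 ± 0.34, with 6.85 on the first wild-type array and 7.86 to 8.36 on the other 3, and Pdcd4, an inhibitor of initiation, had one of -0.15 ± 0.05. Over all genes the shares at that level were 3.67% higher and 3.08% lower, and none of the genes in these lists passed the adjusted test. Without overlap of the groups, 34.5% of the 29 TOP class genes were higher and 13.8% lower. Among the 64 ribosomal protein genes these shares were 31.2% and 7.81%, and over all genes 19.4% and 17.4%. The biogenesis list had 22.2% on either side, and the mTOR list 8.7% higher and 13% lower.

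Summed levels of some cell type markers differed between the arrays. The sums are of raw spot medians, neither normalized nor corrected for background, so they include differences in array scale. Of 7 fixed erythroid markers 5 were measured, with summed spot medians of 1339 and 3458 units in wild type against 3758 and 3782 in the knockout. Normalized, the median deviation of these markers was -1.06 and 0.147 in wild type against 0.423 and 0.514 in the knockout. That of ribosomal protein genes was -0.024 and -0.026 on the wild-type arrays and 0.028 and 0.004 on the knockout arrays. Summed endothelial markers, 5 of 5 measured, read 963 to 1095 units, and leukocyte markers, 5 of 5, read 1422 to 1668. Fibroblast markers, 5 of 5, read 4154 and 4197 in wild type against 3615 and 3024 in the knockout. That sum was carried by Dcn, with a fold change of -0.47 ± 0.13, while 3 of the 5 lay higher and the median of the list was 0.036. Atrial markers, 3 of 4 measured, summed to 3475 and 3746 units in wild type against 4343 and 6158 in the knockout. That sum was carried by Nppa, which encodes atrial natriuretic peptide, at 3280 and 3420 units against 4130 and 5950, while Myl4 and Myl7 did not lie higher. The part of cell composition in the ribosomal values was not tested.

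**Figure D4:**
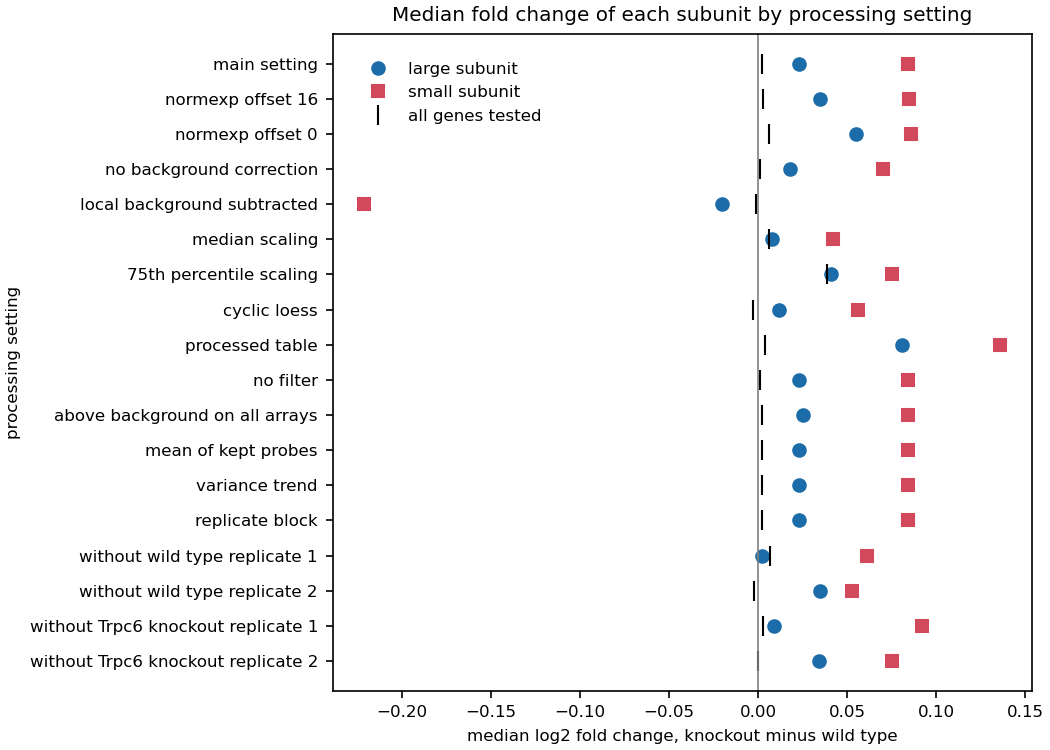
Each row is a processing setting and the horizontal axis the median log2 fold change, with large subunit genes as blue circles, small subunit genes as red squares and all genes tested as black ticks. The small subunit lies above the large in every row shown except where local background was subtracted, at -0.221 against -0.02.

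The direction depended on how background was treated. With the local background of each spot subtracted, 27 of the 64 genes had a fold change above 0, in place of 47. Over all genes the share above 0 was 49.6%, in place of 51.1%. Fold changes then spread with an SD of 0.75 over the 64 genes, in place of 0.13. Local background followed the spot signal, with a correlation of 0.928 to 0.965 over probes, and its median around member spots was 1110 to 1170 units against 80.3 to 84.6 units over all probes. Around small subunit spots it was 1870 and 1410 units in wild type against 1870 and 1650 in the knockout. Around large subunit spots it was 854 and 649 against 752 and 730 units. Its part in the turned order of the subunits was not tested. In Rps27 the fold change of 0.25 became -0.04 with local background subtracted. Of 29 members followed through the settings, 8 kept their sign under all 17 alternatives run. Rpl15 lay between 0.21 and 0.37, Rpl3 between 0.12 and 0.22 and Rps7 between 0.03 and 0.24. Rps6 and Rpl11 stayed higher as well, while Rpl7, Rpl23a and Rps13 stayed lower.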

How the data were processed

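Total RNA, extracted from cells in the words of the labels although the source is muscle, was amplified with the amino allyl method, labelled with Cy5 and hybridised to TORAY arrays, per the labels' protocols. The deposited scanner files give the median intensity of each of 27456 spots and of its local background at 635 nm, linear and not normalized, per the file headers. The headers list straight lines fitted between scanner gains. Which gain supplied a value is not stated there. A deposited table of processed intensity was a straight line of the same spot medians (residuals of at most 0.0523 units), minus 78.4 to 87.7 units, scaled to a median of 25, with the rule for its empty cells unknown.

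Spot medians of all spots, control spots included, were corrected with normexp (offset 50) in limma 3.58.1 under R 4.3.3. Gene probes alone, without control spots, were then quantile normalized. Probes above the 95th percentile of blank and negative control spots on at least 2 arrays were kept. A gene was represented by its brightest probe. Groups were compared with lmFit and eBayes without covariates. The fit had 2 residual and 2.49 prior degrees of freedom, and the code was tested on simulated data. Of the probes, 20690 had 1 symbol, 0 several and 2783 none. Symbols came from the platform annotation.

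Members, lists and tests were chosen with earlier results of these data known. Named were the 8 members with the smallest p in each direction, paralog pairs and stalk proteins (of which Rps4l, annotated as a pseudogene, and Rplp0 to Rplp2 gave no member), Rpsa, Rps6, Rps19, Rpl5, Rpl11, Rpl13a and Rps18, and up to 2 genes per direction of each related list at an unadjusted p under 0.05. Fau and others outside this rule were chosen after their values were seen.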

Additional observations from a re-analysis of the deposited data

How the results depend on the processing

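No member had an adjusted p under 0.05 under any of the alternatives run. With local background subtracted, 3 members were higher and 7 lower at an unadjusted p under 0.05, against 4.44% and 3.62% of all genes. In that setting 27 members had a fold change above 0, where 49.6% of all genes did. The subtraction turned the medians to -0.033 (all members), -0.02 (large subunit) and -0.221 (small subunit) and the gap between subunits to -0.201. It also turned Rpl10 to 0.95, Rpl28 to 0.72, Rpl32 to 0.25, Rpl36a to 0.31, Rpl36al to 0.09, Rps14 to -0.9, Rps18 to -1.64, Rps27 to -0.04, Rps28 to -0.63, Rps3 to -0.51, Rps4x to -0.6, Rps9 to -0.48, Rpsa to -0.18, Rpl13a to -0.24, Rpl39 to -0.87, Rpl3l to -0.74, Rps27l to -0.22, Rpl10l to -0.03 and Rpl39l to -0.05. The cause was not tested. Scaling to the 75th percentile turned Rps19 to 0.01. The count of members higher was 3 with an offset of 16 or a variance trend and 0 with an offset of 0 or in the authors' table. Over all genes the shares higher were 3.2%, 2.94%, 2.81% and 1.36%, in that order. Without background correction, with cyclic loess and with no filter, 1 member was lower, against 2.97%, 3.48% and 2.89% of all genes. The median of all members was 0.068 with an offset of 0, 0.03 with median scaling, 0.064 with 75th percentile scaling (where the median of all genes rose from 0.002 to 0.039 and 69.8% of them lay above 0), 0.027 with cyclic loess and 0.112 in the authors' table. The large subunit median was 0.055 with an offset of 0 and 0.081 in the authors' table. The small subunit median was 0.07 without background correction, 0.042 with median scaling, 0.056 with cyclic loess and 0.136 in the authors' table.

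Without 1 array at a time, 3 to 13 members were higher and 0 to 6 lower at an unadjusted p under 0.05, and 40 to 45 were above 0. Over all genes the shares moved too, from 1.57% higher and 1.22% lower without the second knockout array to 7.16% and 7.53% without the first wild-type array. The medians were 0.03 to 0.045 over all members, 0.002 to 0.035 for the large and 0.053 to 0.092 for the small subunit, with a gap of 0.018 to 0.082. Fold changes that turned sign ranged from -0.01 to 0.04 for Rpl10l and for Rpl39l, -0.03 to 0.19 for Rpl5, -0.03 to 0.13 for Rps18, -0.11 to 0.05 for Rps19 and -0.06 to 0.1 for Rps27l. Over all genes the split of calls at an unadjusted p under 0.05 was 585 higher and 491 lower, 397 and 676 with median scaling, and 718 and 415 with 75th percentile scaling. The replicate block gave 10 members higher and 1 lower, against 3.94% and 3.26% of all genes. The labels do not say that replicate numbers pair samples, and same-numbered arrays deviated together with a correlation of 0.0967. Restricting to the 45 bright members, an alternative chosen after seeing the data, gave 8 higher (17.8%), 0 lower and a median of 0.056. Over all genes, bright and dim, the shares were 3.67% higher and 3.08% lower.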
